A study of Mus musculus with 16 samples.

Results

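The 10 genes Hmox1, Blvra, Blvrb, Ftl1, Fth1, Slc40a1, Hamp, Tfrc, Trf and Alas1 carry the main steps by which the liver makes and breaks down heme and takes up, stores and releases iron. They were taken by symbol from 18209 named genes measured in mouse liver. The rule uses no measured value, but the genes were chosen with earlier results of these data known. All 10 were above the expression limit (normalized counts of 10 or more in 4 or more libraries), as were 15781 genes in total.

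Whole liver RNA of 16 mice aged 20 days, labelled male, was sequenced after removal of ribosomal RNA, 4 mice in each of 4 genotypes. Trsp, the gene for the selenocysteine tRNA that selenoprotein synthesis needs, was flanked by loxP sites on both alleles in every group, controls included. The control group, Trsp fl/fl, carried no Cre. In Trsp fl/fl::AlbCre livers, Cre under the albumin promoter deleted Trsp in hepatocytes, while other liver cells kept it. The third group, Keap1 C226S&C613S homo::Trsp fl/fl, was homozygous for a KEAP1 whose oxidative stress sensor cysteines were replaced by serine, with Trsp intact (called here the mutant group with Trsp intact). The fourth, Keap1 C226S&C613S homo::Trsp fl/fl::AlbCre, joined this KEAP1 to the hepatocyte deletion of Trsp (the mutant knockout group). Below, a Trsp knockout effect is the difference between AlbCre and no AlbCre on one Keap1 background, and a Keap1 effect is the difference between mutant and wild-type KEAP1 at one state of Trsp.

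Heme is built in a pathway whose first and rate-limiting enzyme in the liver is Alas1. Heme oxygenase 1 (Hmox1) opens the heme ring, which releases iron and biliverdin, and the biliverdin reductases Blvra and Blvrb turn biliverdin into bilirubin. Free iron is stored in the ferritin shell of heavy (Fth1) and light (Ftl1) chains, enters cells as transferrin-bound iron (Trf, carried by the receptor Tfrc), and leaves them through ferroportin (Slc40a1). Hepcidin, the hormone encoded by Hamp and made by hepatocytes, removes ferroportin from the cell surface. NRF2, the transcription factor that KEAP1 holds in check, is known to act on several of these genes, Hmox1, Fth1, Ftl1, Blvrb and Slc40a1 among them.

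Part of this system is controlled on the RNA itself. Iron regulatory proteins bind hairpins called iron responsive elements when iron is scarce. A hairpin in the 5′ UTR blocks translation, and hairpins in the 3′ UTR protect the RNA from decay. The hairpin was searched as an unpaired C, 5 stem bases, the loop CAGTGN and 5 bases that pair with those before the loop (G-T pairs allowed), on the sense strand of GENCODE vM21 transcripts (GRCm38). The pattern occurred in 0.96% of 58797 protein-coding transcripts. In the first-listed transcripts of the 10 genes it was found once in the 5′ UTR of Fth1, Ftl1 and Slc40a1 and 4 times in the 3′ UTR of Tfrc. No match was found in the transcripts of the other 6 genes. The sites are shown because they separate the members whose protein can change without a change in RNA from Tfrc, whose RNA level is itself regulated. Capitals mark the loop. The Fth1 site is at chr19:9982732-9982760 (+ strand), the Ftl1 site at chr7:45459779-45459807 (− strand), the Slc40a1 site at chr1:45925465-45925493 (− strand) and the first Tfrc site at chr16:32631219-32631247 (+ strand).
Fth1 5′ UTR: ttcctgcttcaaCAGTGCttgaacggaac
Ftl1 5′ UTR: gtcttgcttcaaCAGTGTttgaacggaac
Slc40a1 5′ UTR: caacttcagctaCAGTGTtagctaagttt
Tfrc 3′ UTR: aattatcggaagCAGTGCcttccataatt

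One library stood apart from its label. Replicate 1 of the mutant knockout group held 28799 reads of Xist and 2 reads over 4 Y-linked genes, against 22 to 50 and 1830 to 3066 in the other 15 libraries, all labelled male. It also had the highest summed count of erythroid markers. Counts that use it, and the members' knockout effects on mutant Keap1, are given with and without it. Reads per library, recovered from the deposited log2 values, ranged from 11386686 to 19164133. The table lists no Trsp, and the deletion was therefore not checked on its own RNA. Hepatocyte markers were detected in every group, and their summed normalized count spanned 1532071 to 1868613 in the controls, 1504331 to 1875624 in Trsp fl/fl::AlbCre, 1754164 to 2120347 in the mutant group with Trsp intact and 854286 to 1669983 in the mutant knockout group. In bulk RNA, fewer cells of a type and less RNA per cell cannot be told apart.

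Values below are log2(normalized count + 4), listed for replicates 1 to 4 of a group, and differences are log2 fold changes with the standard error from limma. Each library is taken here as a separate mouse. The labels say only that the replicates are separate samples, so the tests measure the spread between these samples. Adjusted p-values are Benjamini-Hochberg values over all 15781 genes. The study's call is an absolute log2 fold change over 1 with an adjusted p under 0.01. Only the thresholds are the study's: they are applied here to the limma fit, so a call is not the study's own result. For the knockout on wild-type Keap1 they were met by 30 genes upward and 4 downward. For the Keap1 effect with Trsp intact they were met by 1 gene in each direction. The study reported more genes in each direction for both comparisons. An adjusted p under 0.05 with no fold limit is used beside the study's call. The 4 comparisons share groups with each other, so their values are set side by side and are not independent.

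On wild-type Keap1, loss of Trsp in hepatocytes raised both ferritin genes. Ftl1 was 1.84-fold and Fth1 1.48-fold higher in Trsp fl/fl::AlbCre than in Trsp fl/fl, and these were the 2 of 10 genes past an adjusted p of 0.05; of all genes tested, 0.444% were higher and past it and 0.114% lower. None of the 10 met the study's call, which 0.190% of all genes did upward; 4 of 10 were under an unadjusted p of 0.05, as were 11.0% of all genes. On Keap1 C226S&C613S, 0 of 10 passed in either direction, with 0.380% of all genes higher and 0.418% lower, and the study's call was met by none of the 10 and by 0.0697% of all genes upward and 0.101% downward; limma voom also gave 0, and 6 of 10 were under an unadjusted p of 0.05, as were 13.6% of all genes. Among livers with the Trsp knockout, the Keap1 mutation lowered 3 of 10, Blvrb, Ftl1 and Fth1, against 1.29% of all genes, and raised 0, against 0.779%, and Ftl1 alone met the study's call, against 0.456%. Under an unadjusted p of 0.05 were 3 of 10, and 17.6% of all genes. With Trsp intact, the Keap1 mutation moved 0 of 10 past an adjusted p of 0.05 by limma and by limma voom, where 0.0317% of all genes were higher and 0.0570% lower, and the study's call was met by 0.00634% of all genes in each direction; 3 were under an unadjusted p of 0.05, as were 9.07% of all genes.

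**Figure D1:**
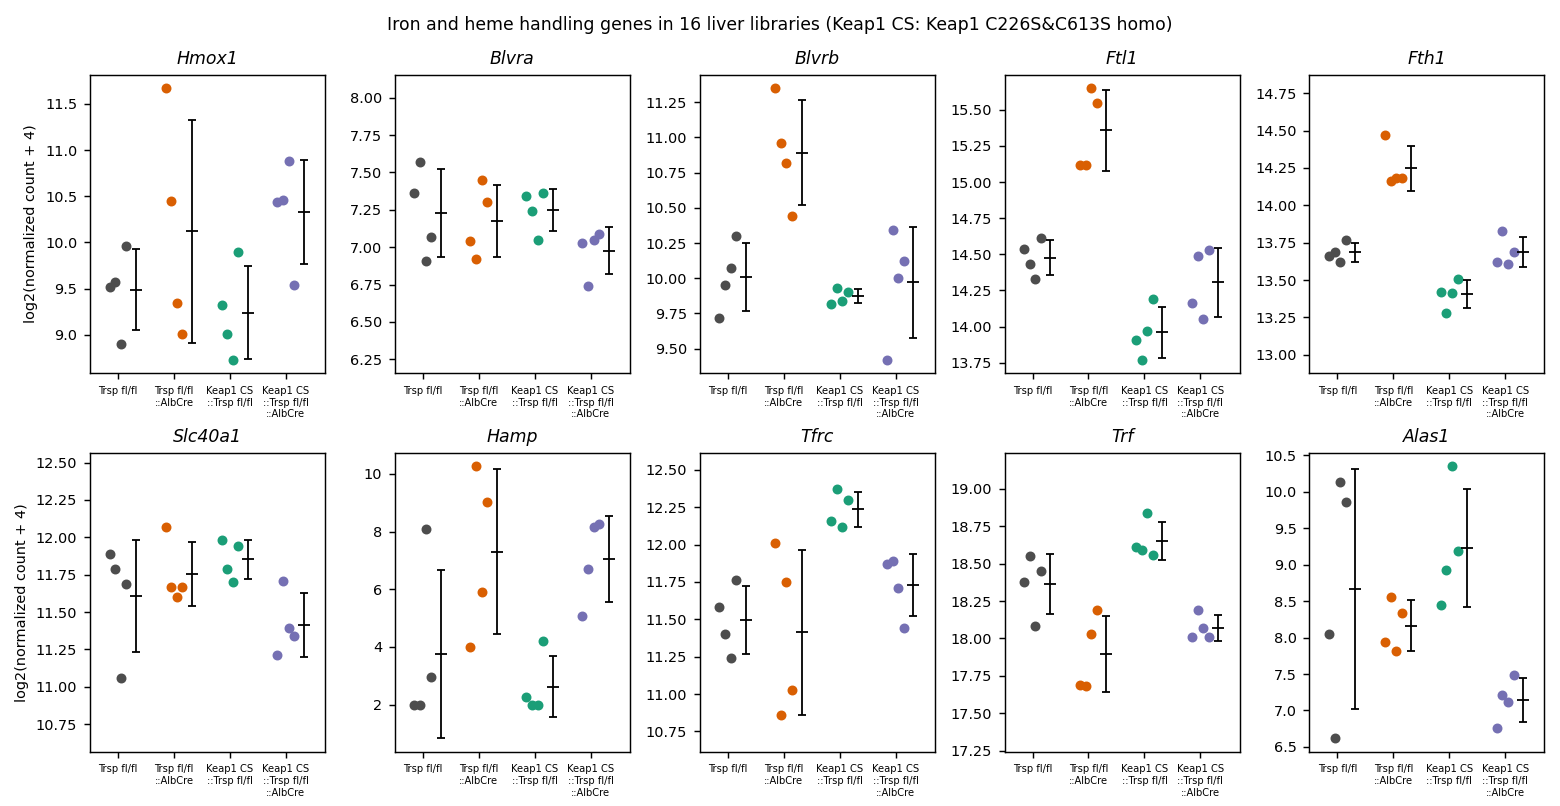
Log2(normalized count + 4) of the 10 genes (1 panel each, separate vertical scales) in 16 liver libraries by genotype; points are libraries in replicate order and the bar beside them is the mean ± SD of 4. For Ftl1, Fth1 and Blvrb all 4 Trsp fl/fl::AlbCre libraries sit above all libraries of the other 3 genotypes, while Hamp, Hmox1 and Alas1 are spread widely within groups.

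The interaction, which tests whether the response to the knockout depends on the Keap1 background, passed for 0 of 10 genes at an adjusted p of 0.05, in limma as in limma voom, with 0.0380% of all genes positive and 0.0570% negative. Under an unadjusted p of 0.05 stood 3 of 10 (Blvrb, Ftl1 and Slc40a1), all with a smaller or more negative knockout effect on the mutant background, against 10.8% of all genes. A difference between the Keap1 backgrounds in the response of these genes to the knockout is thus not shown by these data. Without the library that stood apart, the counts at an adjusted p of 0.05 were 3 higher on wild-type Keap1 (Blvrb joined the ferritins), against 0.488% of all genes, and 2 lower for the Keap1 mutation in knockout livers (Ftl1 and Fth1), against 0.722%. They were 0 on the mutant background, where 0.177% of all genes were higher and 0.209% lower, and 0 for the interaction (0.0380% and 0.0444%).

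**Figure D2:**
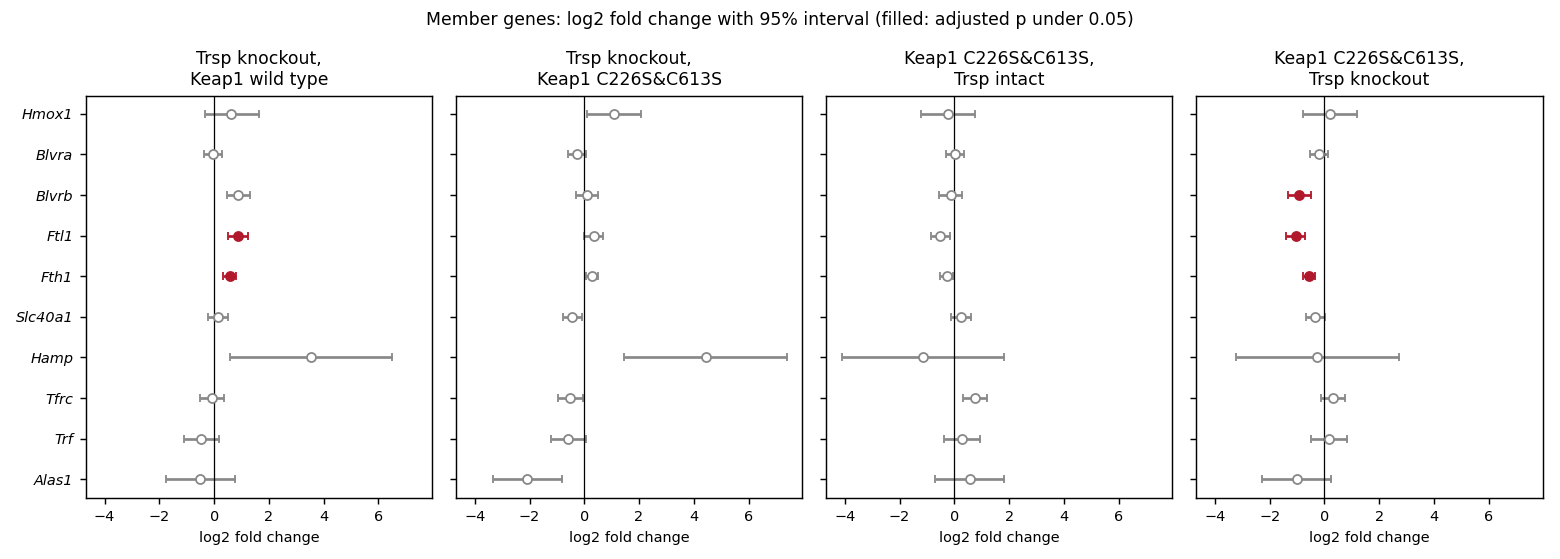
Log2 fold change of the 10 genes with its 95% interval (horizontal axis) in the knockout effect on each Keap1 background and the Keap1 effect at each state of Trsp; filled red points are past an adjusted p of 0.05. The filled points are Ftl1 and Fth1 in the first panel and Blvrb, Ftl1 and Fth1 in the last, and the Hamp intervals are the widest of the 10 in every panel.

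Ferritin light chain (Ftl1, ENSMUSG00000050708), which helps iron to settle as a mineral core, measured 14.54, 14.43, 14.33 and 14.61 in controls and 15.12, 15.12, 15.65 and 15.55 in Trsp fl/fl::AlbCre. The 2 groups did not overlap, and the lowest knockout library was higher than the highest control. On mutant Keap1 the values were 13.91, 13.77, 13.97 and 14.19 with Trsp intact and 14.16, 14.49, 14.05 and 14.53 with the knockout, and here the groups overlapped. Its knockout effect was 0.88 ± 0.17 on wild-type Keap1 (95% interval 0.52 to 1.23, adjusted p = 0.022) and 0.35 ± 0.17 on mutant Keap1 (−0.01 to 0.70, adjusted p = 0.38), where it was 0.40 (adjusted p = 0.45) without the library that stood apart. The Keap1 effect was −1.05 ± 0.17 in knockout livers (adjusted p = 0.0032), the only study call among the 10, and −0.52 ± 0.17 with Trsp intact (adjusted p = 0.33). Ordered by mean, the mutant group with Trsp intact was lowest, then the mutant knockout, the control and the wild-type Keap1 knockout, and only the last step, of 0.88, had no overlap.

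Ferritin heavy chain (Fth1, ENSMUSG00000024661), which carries the ferroxidase that loads iron into the shell, followed the same order of groups apart from the middle pair. It measured 13.66, 13.69, 13.62 and 13.77 in Trsp fl/fl against 14.47, 14.16, 14.18 and 14.18 in Trsp fl/fl::AlbCre. On mutant Keap1 it was 13.42, 13.28, 13.41 and 13.51 with Trsp intact and 13.62, 13.83, 13.61 and 13.69 with the knockout. Neither pair of groups overlapped, so every knockout library was above every library with intact Trsp on its own Keap1 background. Trsp fl/fl and the mutant knockout group differed by 0.00, and the range of the former lay within that of the latter. The knockout effect was 0.56 ± 0.11 on wild-type Keap1 (0.33 to 0.80, adjusted p = 0.025) and 0.28 ± 0.11 on mutant Keap1 (0.05 to 0.51, adjusted p = 0.27). Without the library that stood apart, the latter was 0.30 (adjusted p = 0.35). The Keap1 effect in knockout livers was −0.56 ± 0.11 (adjusted p = 0.013).

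The ferritin calls on wild-type Keap1 lie near the threshold. When only the groups of the comparison entered the fit, the adjusted p was 0.1 for Ftl1 and 0.13 for Fth1 with unchanged fold changes, and the Keap1 effect in knockout livers had 0.07 and 0.14. The Ftl1 call was lost without Trsp fl/fl replicate 1 (adjusted p = 0.062), 2 (0.081) or 3 (0.069) or without Trsp fl/fl::AlbCre replicate 3 (0.072) or 4 (0.072), and the Fth1 call without Trsp fl/fl replicate 1 (0.089), 2 (0.088) or 3 (0.075) or Trsp fl/fl::AlbCre replicate 1 (0.093) or 4 (0.052). For the Keap1 effect in knockout livers, the fall of Ftl1 passed an adjusted p of 0.05 without any one library but met the study's call no longer without Trsp fl/fl::AlbCre replicate 3 or 4 or mutant knockout replicate 1 or 3 (−1 to −0.95, adjusted p = 0.01 to 0.019), and Fth1 no longer passed without mutant knockout replicate 3 (adjusted p = 0.057). Quantile normalization of the values moved Fth1 on mutant Keap1 to 0.48 (adjusted p = 0.025) and its Keap1 effect in knockout livers to −0.28 (adjusted p = 0.14). The processed pseudogene Ftl1-ps1 held 12 to 100 reads per library and Fth-ps2 4 to 15, against at least 14591 and 10383 for the genes, and adding their counts left both knockout effects at 0.88 and 0.56.

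Biliverdin reductase B (Blvrb, ENSMUSG00000040466), the form that prevails in fetal life and also acts as a flavin reductase, ranked with the ferritins. It measured 9.72, 9.95, 10.07 and 10.30 in the controls and 11.35, 10.96, 10.82 and 10.44 in Trsp fl/fl::AlbCre. On the mutant background Blvrb measured 9.82, 9.93, 9.84 and 9.90 with Trsp intact and 9.42, 10.34, 10 and 10.12 with the knockout. The wild-type Keap1 knockout group was above each other group without overlap, and the other 3 groups overlapped one another. Its knockout effect on wild-type Keap1 was 0.88 ± 0.19 (0.47 to 1.30), with an adjusted p of 0.058, and 0.10 ± 0.19 (−0.31 to 0.51) on mutant Keap1, or 0.28 (adjusted p = 0.62) without replicate 1 of the mutant knockout group. The Keap1 effect in knockout livers was −0.92 ± 0.19 (adjusted p = 0.022), and the interaction −0.78 ± 0.28 (adjusted p = 0.37). Without mutant knockout replicate 1, the lowest of the 16 at 9.42, the knockout effect on wild-type Keap1 passed (0.88, adjusted p = 0.02) and the Keap1 effect in knockout livers did not (−0.74, adjusted p = 0.067). The latter also no longer passed without mutant knockout replicate 3 (−0.93, 0.065) or Trsp fl/fl::AlbCre replicate 1 (−0.77, 0.062), 2 (−0.90, 0.053) or 3 (−0.94, 0.05), and the former passed without Trsp fl/fl replicate 4 (0.98, 0.044) or Trsp fl/fl::AlbCre replicate 4 (1.03, 0.025).

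Biliverdin reductase A (Blvra, ENSMUSG00000001999), the enzyme that makes most bilirubin in adult tissue, lay between 6.74 and 7.57 in all 16 libraries. Its knockout effect was −0.05 ± 0.16 (−0.39 to 0.29) on wild-type and −0.27 ± 0.16 (−0.61 to 0.07) on mutant Keap1, the latter −0.29 (adjusted p = 0.62) without the library that stood apart, and every pair of groups overlapped. Whether Blvra and Blvrb differ in their response was not tested.

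Heme oxygenase 1 (Hmox1, ENSMUSG00000005413) was variable. It measured 9.52, 9.57, 8.90 and 9.96 in the controls and 11.67, 10.45, 9.35 and 9.01 in Trsp fl/fl::AlbCre, where it spanned 6.40-fold in normalized count from the lowest to the highest liver. Among mutant livers Hmox1 was 9.32, 9.01, 8.73 and 9.90 with Trsp intact and 10.44, 10.46, 10.88 and 9.54 with the knockout. In the mutant knockout group 3 of 4 livers were above all 4 livers of the mutant group with Trsp intact, and the remaining one lay within that range. The knockout effect was 0.63 ± 0.47 (−0.35 to 1.62, adjusted p = 0.65) on wild-type and 1.09 ± 0.47 (0.10 to 2.08, adjusted p = 0.32) on mutant Keap1, and 1.05 (adjusted p = 0.5) in the latter without the library that stood apart. The intervals allow from no change to more than a 3-fold rise on wild-type Keap1 (0.782 to 3.08-fold), and no change of Hmox1 was detectable against this spread.

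Ferroportin (Slc40a1, ENSMUSG00000025993), the only known iron exporter of mammalian cells, measured 11.89, 11.79, 11.06 and 11.69 in the controls and 12.07, 11.67, 11.60 and 11.67 in Trsp fl/fl::AlbCre. In the mutant groups ferroportin was 11.98, 11.79, 11.70 and 11.94 with Trsp intact and 11.21, 11.71, 11.39 and 11.34 with the knockout. Only one library of the last group, at 11.71, reached the range of its control group. Its knockout effect was 0.14 ± 0.17 (adjusted p = 0.79) on wild-type and −0.44 ± 0.17 (−0.79 to −0.08, adjusted p = 0.26) on mutant Keap1, the latter −0.37 (adjusted p = 0.5) without the library that stood apart. Ferroportin is also abundant in Kupffer cells, whose markers summed to 7404 to 15247 in Trsp fl/fl, 8798 to 15174 in Trsp fl/fl::AlbCre, 9323 to 21578 in the mutant group with Trsp intact and 6334 to 13390 in the mutant knockout group. Of these 13 markers 12 were lower in the last comparison, 0 of them past an adjusted p of 0.05, and their part in the Slc40a1 values was not tested.

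Hepcidin (Hamp, ENSMUSG00000050440) had the widest spread of the 10 genes. Control livers held 0, 0, 287 and 3 reads, which correspond to 2, 2, 8.09 and 2.95, and Trsp fl/fl::AlbCre livers held 12, 933, 52 and 529 reads (4.01, 10.26, 5.90 and 9.04). On mutant Keap1 the reads were 1, 0, 0 and 15 with Trsp intact (2.28, 2, 2 and 4.20) and 32, 113, 307 and 302 with the knockout (5.08, 6.70, 8.16 and 8.26). On mutant Keap1 all 4 knockout livers were above all 4 livers with intact Trsp, and on wild-type Keap1 the single high control, replicate 3, overlapped the knockout group. The fitted knockout effects were 3.54 ± 1.40 (0.58 to 6.51, adjusted p = 0.34) and 4.43 ± 1.40 (1.46 to 7.39, adjusted p = 0.16), and neither passed. When each library was left out in turn, the first ran from 2.56 (without Trsp fl/fl::AlbCre replicate 2) to 4.99 (without the high control, replicate 3), with adjusted p-values of 0.1 to 0.65, and the second from 4.02 to 5.08 (0.083 to 0.37). For a gene at or near 0 reads such a value depends on the constant added: with a constant of 0.5 it was 5.15 and 6.40. In the fit of the mutant groups alone it passed (4.43, adjusted p = 0.039), and without mutant knockout replicate 1 it was 5.08 (adjusted p = 0.19).

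Mice carry a second hepcidin gene, Hamp2 (ENSMUSG00000056978), next to Hamp and nearly identical to it, and transcript-based counting can split reads between them. Hamp2 measured 2.56, 2.36, 9.62 and 2.39 in the controls, 6.52, 11.11, 7.78 and 9.73 in Trsp fl/fl::AlbCre, 5.43, 3.42, 3.28 and 6.28 in the mutant group with Trsp intact and 4.62, 8.88, 7.52 and 10 in the mutant knockout group. Its high and low livers were largely those of Hamp, including the single high control. Over the 16 livers the Pearson correlation of Hamp with Hamp2 was 0.93, and 0.91 after the mean of each genotype was subtracted, a description of 2 rows that may share reads. The knockout effect of Hamp2 was 4.55 ± 1.54 (adjusted p = 0.26) on wild-type and 3.15 ± 1.54 (adjusted p = 0.39) on mutant Keap1, and the latter was 4.20 (adjusted p = 0.35) without the library that stood apart. With both counts summed it was 4.71 (adjusted p = 0.25) and 3.87 (adjusted p = 0.29).

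The promoters of these 2 genes are shown because their RNA varied together. RefSeq windows from 250 bases before to 50 bases after the start (GRCm38.p6) were given for 7 of the 10 genes and for Hamp2; Hmox1, Slc40a1 and Trf had no entry. Stretches of 120 bases, both on the − strand, were aligned on the letters TTCNNNGAA, the core bound by STAT factors, which relay interleukin 6. They are chr7:30944067-30944186 for Hamp, from 157 to 38 bases before its start, and chr7:30924216-30924335 for Hamp2. Capitals mark TTCNNNGAA and, in Hamp, GGCGCC, the core of the element through which BMP and SMAD factors act. Both motifs read the same on either strand and they do not overlap here.
Hamp: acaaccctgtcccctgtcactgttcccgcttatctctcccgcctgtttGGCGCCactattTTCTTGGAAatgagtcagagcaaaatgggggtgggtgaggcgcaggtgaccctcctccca
Hamp2: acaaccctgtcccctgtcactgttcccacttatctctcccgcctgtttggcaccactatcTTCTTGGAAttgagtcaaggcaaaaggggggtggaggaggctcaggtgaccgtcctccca

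The stretches were identical at 109 of 120 positions (90.8%). TTCNNNGAA was found in both and in 8.3% of all 32851 promoter windows, and GGCGCC in the Hamp window but not in that of Hamp2, and in 11.9% of all windows. Among the other members, GGCGCC was also found for Tfrc and TTCNNNGAA for Alas1. TGACNNNGC, the core of the antioxidant response element that NRF2 binds, was found on either strand in the window of Blvra alone among the 7 genes, and in 12.4% of all windows. These are matches of letters in short windows, and a missing match says only that the letters are not in the window.

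**Figure D3:**
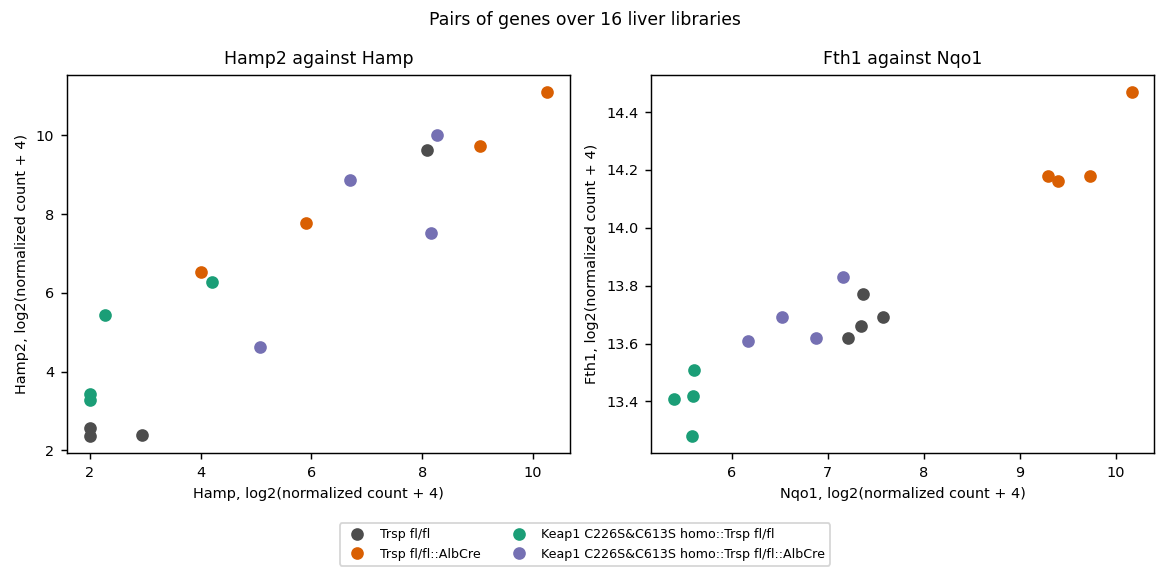
Hamp2 against Hamp (left) and Fth1 against Nqo1 (right), both axes in log2(normalized count + 4), 1 point per liver library, coloured by genotype. Hamp and Hamp2 vary together within genotypes (r = 0.91 after the genotype means were subtracted), and the 4 Trsp fl/fl::AlbCre livers lie above the other 12 for both Fth1 and Nqo1.

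Signals that reach hepcidin were read from a list of 29 genes, 27 of them tested, that includes Hamp and Hamp2. None passed an adjusted p of 0.05 in any of the 4 comparisons or the interaction, and its median knockout effect was 0.06 on wild-type and 0.07 on mutant Keap1, against −0.01 and 0.00 for all genes. Some of its members are named here after their values were seen. Atoh8, a BMP-induced factor, had 0.85 ± 0.33 on wild-type and 0.54 ± 0.33 on mutant Keap1, and Socs3, a target of STAT3, had 0.92 ± 0.66 and 1.48 ± 0.66. The BMP-SMAD targets Id1, Smad6 and Smad7 had −0.24, 0.03 and −0.18 on wild-type and 0.74, 0.38 and −0.02 on mutant Keap1. Bmp6, the ligand that reports iron load to hepatocytes, had 0.62 ± 0.47 (adjusted p = 0.66) on wild-type and 0.75 ± 0.47 (adjusted p = 0.53) on mutant Keap1. It measured 7.11 in the high-Hamp control, replicate 3, and 4.14 to 5.45 in the other 3 controls, and a link between the 2 genes was not tested.

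Transferrin receptor (Tfrc, ENSMUSG00000022797) was highest in the mutant group with Trsp intact. It measured 11.58, 11.40, 11.24 and 11.76 in the controls and 12.01, 10.86, 11.75 and 11.03 in Trsp fl/fl::AlbCre. Among mutant livers Tfrc was 12.16, 12.37, 12.12 and 12.30 with Trsp intact and 11.87, 11.89, 11.71 and 11.44 with the knockout. All 4 livers of the mutant group with Trsp intact were above all others. The Keap1 effect with Trsp intact was 0.74 ± 0.21 (0.30 to 1.19, adjusted p = 0.26) and the knockout effect on mutant Keap1 was −0.51 ± 0.21 (−0.96 to −0.06, adjusted p = 0.29), and neither passed. Without the library that stood apart, the latter was −0.56 (adjusted p = 0.41).

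Tfrc is strongly expressed by erythroid precursors, which the livers of young mice still hold, so their markers are given beside it. The summed normalized count of 14 erythroid markers was 34229 to 64893 in Trsp fl/fl, 14933 to 35330 in Trsp fl/fl::AlbCre, 13125 to 25723 in the mutant group with Trsp intact and 15654 to 24804 in mutant knockout replicates 2 to 4, with 96700 in replicate 1. No marker was at 0 in every library of a group, and of 11 tested 1, Sptb, passed an adjusted p of 0.05, lower in Trsp fl/fl::AlbCre than in the controls. The part of these cells in the values of Tfrc and the other members was not tested.

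**Figure D4:**
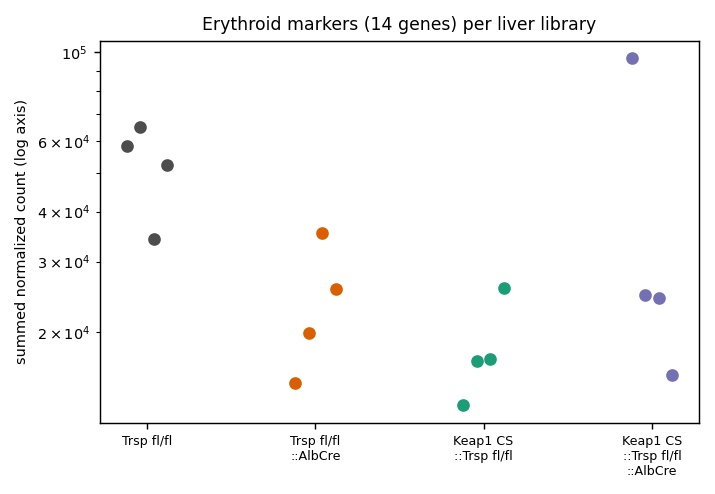
Summed normalized count of 14 erythroid marker genes (log axis) in 16 liver libraries by genotype, 1 point per library. Control livers lie between 34229 and 64893, and replicate 1 of the mutant knockout group stands highest at 96700.

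Transferrin (Trf, ENSMUSG00000032554), the iron carrier of plasma that hepatocytes secrete, had lower means in the livers with the knockout. Its values were 18.38, 18.55, 18.08 and 18.45 in the controls and 17.69, 17.68, 18.03 and 18.19 in Trsp fl/fl::AlbCre. The mutant groups measured 18.61, 18.59, 18.84 and 18.56 with Trsp intact and 18.01, 18.19, 18.07 and 18.01 with the knockout. The mutant pair did not overlap, and in the wild-type Keap1 pair only knockout replicate 4 was above the lowest control. The knockout effect was −0.47 ± 0.31 (−1.12 to 0.19, adjusted p = 0.61) and −0.58 ± 0.31 (−1.23 to 0.08, adjusted p = 0.44), the latter −0.56 (adjusted p = 0.51) without the library that stood apart. Neither effect passed. The SD within groups was 0.09 to 0.25, and in a limma fit that did not tie the spread to the level of expression the standard error was 0.14, with adjusted p-values of 0.2 and 0.082.

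Alas1 (ENSMUSG00000032786), the first enzyme of heme synthesis, spanned 6.62 to 10.14 in control livers, which measured 8.05, 6.62, 10.14 and 9.86. In Trsp fl/fl::AlbCre it was 7.94, 8.56, 7.81 and 8.34, within the range of the controls. In the mutant groups Alas1 was 8.45, 8.93, 10.35 and 9.19 with Trsp intact and 6.76, 7.21, 7.11 and 7.49 with the knockout, without overlap. The knockout effect on mutant Keap1 was −2.09 ± 0.59 (−3.34 to −0.83), or 0.236-fold, with an adjusted p of 0.12, and on wild-type Keap1 it was −0.51 ± 0.59 (−1.76 to 0.75). The former passed when the mutant groups were fitted alone (adjusted p = 0.04) or when the lowest control, Trsp fl/fl replicate 2, was left out (adjusted p = 0.039), and was −1.96 (adjusted p = 0.27) without mutant knockout replicate 1. Of all genes, 3.71% were lower without overlap in this comparison, as were 3 of the 10 (Tfrc, Trf and Alas1), and 3.97% were higher, as were 2 of the 10 (Fth1 and Hamp). The corresponding shares on wild-type Keap1 were 3.40% of all genes higher, with 3 of the 10 (Blvrb, Ftl1 and Fth1), and 2.62% lower, with 0. For the Keap1 effect with Trsp intact they were 3.19% higher, with 2 (Tfrc and Trf), and 3.04% lower, with 2 (Ftl1 and Fth1). In knockout livers they were 4.53% higher, with 0, and 4.08% lower, with 4 (Blvrb, Ftl1, Fth1 and Alas1).

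The wider network was read from lists on iron, heme, hepcidin control and ferroptosis that hold 120 other genes, of which 112 were tested. The ferroptosis list was meant for genes outside iron and heme handling. On wild-type Keap1 the knockout raised 3 of the 112 and lowered 0 at an adjusted p of 0.05. Of all genes, 0.444% were higher and 0.114% lower. The 3 were all in heme breakdown and transport. Slc48a1, which carries heme out of lysosomes, rose by 1.18 ± 0.15 (adjusted p = 0.0005) and met the study's call. Bach1, a heme-sensing repressor of Hmox1 and the ferritin genes, rose by 0.89 ± 0.19 (adjusted p = 0.042), and Abcg2, an exporter of porphyrins and urate, by 0.76 ± 0.12 (adjusted p = 0.0055). The 3 genes share a list but not a step, since Bach1 represses transcription and the others transport. The median over the 112 genes was 0.04, against −0.01 over all genes. Without mutant knockout replicate 1, which enters this comparison only through the shared spread, 4 genes were higher (Pgrmc1 joined them) and 1, Alas2, was lower. Of all genes, 0.488% were then higher and 0.177% lower.

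On mutant Keap1 the knockout raised 2 of the 112 and lowered 0, against 0.380% and 0.418% of all genes. Fbxl5, which marks iron regulatory protein 2 for destruction when iron is present, rose by 0.42 ± 0.08 (adjusted p = 0.027), and Steap2, a metalloreductase, by 0.62 ± 0.13 (adjusted p = 0.035). Without the library that stood apart, Fbxl5 stayed past the threshold (0.47, adjusted p = 0.028) and Steap2 did not (0.57, adjusted p = 0.11). Of all genes, 0.177% were then higher. Slc48a1 had 0.21 ± 0.15 and Abcg2 0.01 ± 0.12 on this background, and their interactions were −0.97 ± 0.21 (adjusted p = 0.14) and −0.74 ± 0.17 (adjusted p = 0.17), so that neither difference between backgrounds passed. Bach1 had 0.60 ± 0.19 (adjusted p = 0.16), with its groups not overlapping on either background.

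In knockout livers the Keap1 mutation lowered 5 of the 112, against 1.29% of all genes, and raised 0, against 0.779%. These were Slc48a1 (−0.90 ± 0.15, adjusted p = 0.0039), Abcg2 (−1.19 ± 0.12, adjusted p = 3.8e-05), the heme-binding membrane protein Pgrmc1 (−0.84 ± 0.17, adjusted p = 0.014), Glrx5, which serves iron-sulfur cluster assembly (−0.59 ± 0.12, adjusted p = 0.018), and Gch1, the first enzyme of tetrahydrobiopterin synthesis (−1.31 ± 0.21, adjusted p = 0.0033). Gch1 belongs to the ferroptosis list. Without the library that stood apart, 4 of the 5 were past the threshold, against 0.722% of all genes, and Glrx5 was not (−0.55, adjusted p = 0.067). With Trsp intact the mutation lowered Gpx4 alone, a selenoprotein that reduces lipid peroxides (−0.60 ± 0.10, adjusted p = 0.023). Gpx4 is on the ferroptosis list too, and 0.0570% of all genes were lower in this comparison. Gpx4 measured 10.94, 11.07, 10.95 and 10.84 in Trsp fl/fl and 10.39, 10.15, 10.30 and 10.55 in the mutant group with Trsp intact, without overlap, and its knockout effect on wild-type Keap1 was −0.03 ± 0.10. These values are RNA and do not give the protein. By Western blot the study reported less GPX4 protein in livers with the Trsp knockout, on wild-type and on mutant Keap1.

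By list, the knockout on wild-type Keap1 had a median of −0.08 over 15 heme synthesis genes, 0.17 over 18 of heme breakdown and transport, −0.14 over 13 of iron uptake and reduction, 0.15 over 8 of iron storage and export, 0.15 over 22 of iron regulatory proteins and mitochondrial iron and 0.09 over 23 ferroptosis genes, Tfrc among them. On mutant Keap1 the same lists had −0.17, −0.05, −0.02, 0.07, −0.10 and 0.07. Over all genes the medians were −0.01 and 0.00. Among the genes with the largest knockout effect of their lists on wild-type Keap1 were Alas2 (−1.23 ± 0.43, adjusted p = 0.28), Hspb1 (−1.17 ± 0.61, adjusted p = 0.51) and Ltf (−0.67 ± 0.62, adjusted p = 0.72). Alas2, the erythroid first enzyme of heme synthesis, is itself one of the erythroid markers. On wild-type Keap1, Slc25a28, a mitochondrial iron importer, had −0.49 ± 0.19 (adjusted p = 0.34). On mutant Keap1 the genes with the largest effect of their lists included Alas1, Hamp, Slc25a37 (0.49 ± 0.27, adjusted p = 0.44), Chac1 (1.45 ± 0.61, adjusted p = 0.31) and Lcn2, a siderophore-binding protein of the acute phase (2.65 ± 1.18, adjusted p = 0.33). Without replicate 1 of the mutant knockout group, Lcn2 had 1.53 (adjusted p = 0.67), Chac1 1.61 (0.42) and Slc25a37 0.31 (0.75). Lcn2 reached 14.91 and 14 in mutant knockout replicates 1 and 3 against 9.59 and 7.69 in replicates 2 and 4. Neutrophil and monocyte markers, which include Ltf, summed to 276 to 1423 in the controls, 260 to 459 in Trsp fl/fl::AlbCre, 572 to 2021 in the mutant group with Trsp intact and 759 to 2544 in the mutant knockout group, and their part in these values was not tested.

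**Figure D5:**
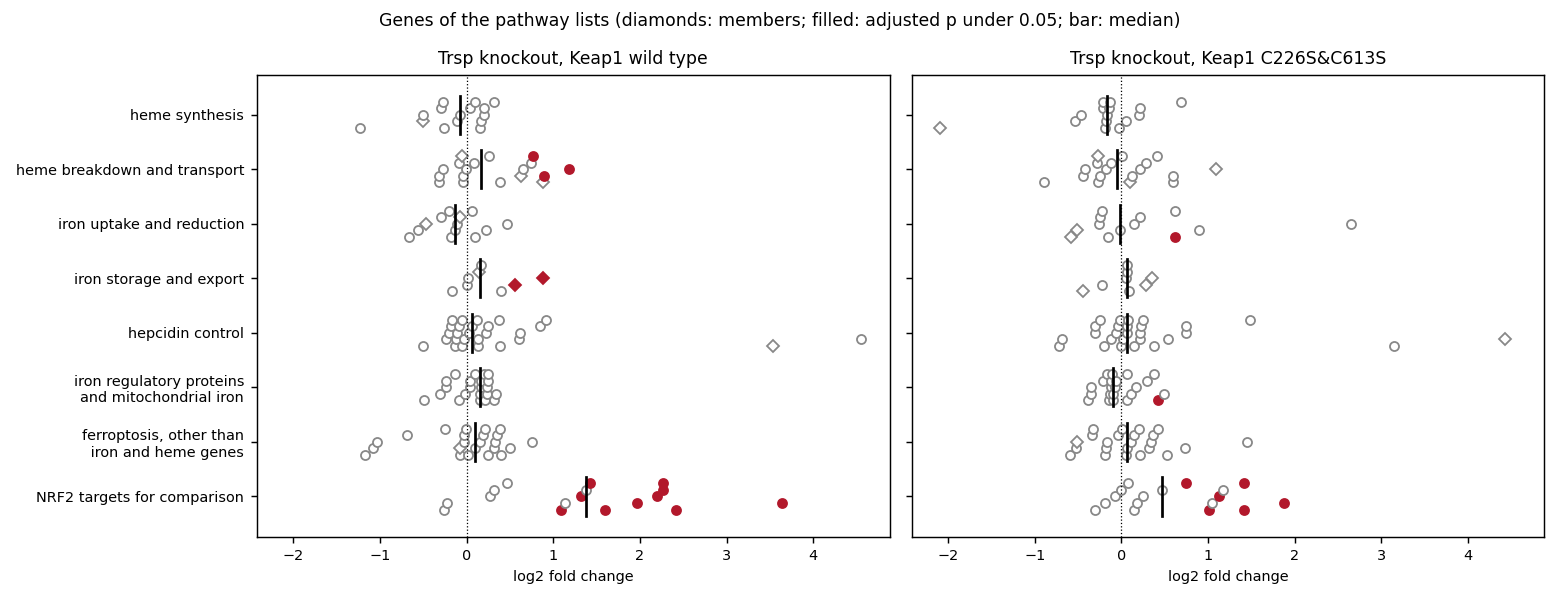
Log2 fold change (horizontal axis) of each tested gene of 8 lists for the Trsp knockout on wild-type (left) and mutant Keap1 (right); diamonds are the 10 members, filled red points are past an adjusted p of 0.05 and the black bar is the list's median. The iron and heme lists centre near 0, and the NRF2 targets, some already reported by the study as raised, have medians of 1.38 and 0.47.

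Known NRF2 targets were set beside the members as a yardstick. The list includes Nqo1, Gclc, Gstm1, Gsta4, Me1 and Srxn1, which the study reported as raised by this knockout. Its counts and medians are therefore a description and not an independent test. Of 17 tested, 10 rose with the knockout on wild-type Keap1 and 6 on mutant Keap1, with medians of 1.38 and 0.47. The Keap1 mutation lowered 12 in knockout livers, with a median of −1.27. The corresponding shares of all genes were 0.444%, 0.380% and 1.29%. Without the library that stood apart the target counts were 11, 4 and 11, with medians of 1.38, 0.50 and −1.31. The shares of all genes were then 0.488%, 0.177% and 0.722%. Nqo1, a quinone reductase and the usual reporter of NRF2, measured 7.35, 7.57, 7.21 and 7.37 in the controls and 10.16, 9.40, 9.73 and 9.29 in Trsp fl/fl::AlbCre. Mutant livers measured 5.60, 5.59, 5.40 and 5.61 with Trsp intact and 6.88, 7.16, 6.17 and 6.52 with the knockout. Its knockout effect was 2.27 ± 0.21 (adjusted p = 3.0e-05) and 1.13 ± 0.21 (adjusted p = 0.017), and the second no longer passed without the library that stood apart (1.07, adjusted p = 0.06). The targets with the largest knockout effect were the carbonyl reductase Cbr3 on wild-type Keap1 (3.64 ± 0.43, adjusted p = 0.00031) and the malic enzyme Me1 on mutant Keap1 (1.88 ± 0.42, adjusted p = 0.049). The Me1 effect, too, did not pass without that library (1.86, adjusted p = 0.12). The interaction passed, with a negative sign, for 1 of the 17 targets, Cbr3, against 0.0570% of all genes. Without that library it passed for 0, against 0.0444%. For Nqo1 the interaction was −1.14 ± 0.29 (adjusted p = 0.24). The ferritin effects of 0.88 and 0.56 were smaller in size than that of Nqo1 and had the same sign in all 4 comparisons.

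Likeness between genes is given over the 16 livers as a description, since the livers share genotypes and size factors. Outside the members, the gene most like Fth1 was Htatip2 (r = 0.971), with Nqo1 next (0.963), and for Blvrb it was Rdh16 (0.955). Ftl1 was most like Gm49668 (0.956), Hamp was most like Hamp2 (0.929), and Trf was most like St3gal4 (0.928). The remaining members had lower values, with 4930522L14Rik for Blvra (0.894), Pnliprp1 for Tfrc (0.877), Dock4 for Slc40a1 (0.861), Gnl2 for Hmox1 (0.842) and Epas1 for Alas1 (0.806). Much of this likeness lies between genotypes. After genotype means were subtracted, the correlation of Ftl1 with Fth1 went from 0.92 to 0.23 and that of Ftl1 with Nqo1 from 0.93 to 0.08, while that of Fth1 with Nqo1 went from 0.96 to 0.68. Hmox1 and Nqo1 had 0.35 over all livers and 0.44 within genotypes.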

How the data were processed

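RNA-sequencing of 16 liver libraries was analysed from 1 table of log2 values. Per the study's methods the authors quantified transcripts with Salmon on GENCODE mouse transcripts and processed the result on the iDEP platform; the annotation release was not matched to the GENCODE vM21 and RefSeq tables used here for sequences. The deposited log2 values equal log2 of reads divided by a size factor plus 4: the lowest is 2 in every library, and reversal gave whole reads for 100% of low values (within 0.05 of a read). Of 18578 rows, 369 without an identifier (0.274% to 0.627% of reads) were left out. Genes at a normalized count of 10 or more in at least 4 libraries (15781) were fitted with limma 3.58.1 (R 4.3.3; lmFit, contrasts, eBayes with trend), all 16 libraries in one fit with a mean per genotype. Members other than Hamp held 83 reads or more in every library, and the spread between mice, more than counting error, set the precision. The log2(count + 4) scale understates changes of weakly expressed genes. Named genes were the members, their near-identical copies, list genes at an adjusted p under 0.05 in any comparison, the gene with the largest knockout effect in each list, and the gene most correlated with each member. Members and lists were chosen with earlier results of these data known. Alternatives were other constants (0.5 and 1), filters (none and 50), quantile normalization, library totals, the compared groups alone, no trend, limma voom on recovered reads with TMM, a replicate block and each library left out; summing near-identical copies was added after the data were seen. Fits were tested on simulated data. Plots used Python 3.11.15 and matplotlib 3.10.9.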

Additional observations from a re-analysis of the deposited data

Results flagged for a closer look

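Of 88 groups of 4 livers examined over 22 genes, 6 held a liver set apart from the other 3 by Dixon's criterion, where chance gives about 4.4. Hamp reached 8.09 in Trsp fl/fl replicate 3, with the next control at 2.95, and Hamp2 reached 9.62 in the same liver, with the next at 2.56. Hamp also stood at 4.20 in replicate 4 of the mutant group with Trsp intact, with the next at 2.28. In Trsp fl/fl::AlbCre replicate 1, Fth1 was highest at 14.47 (next 14.18) and Slc40a1 was highest at 12.07 (next 11.67), the same liver that had the highest Hmox1 of its group, 11.67. Blvra was lowest at 6.74 in mutant knockout replicate 2, with the next at 7.03. All values are log2(normalized count + 4).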

How the results depend on the processing

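At an adjusted p under 0.05 in place of the study's thresholds, the members called went from 0 to 2 for the knockout on wild-type Keap1 and from 1 to 3 for the Keap1 effect in knockout livers. The first count of 2 became 1 with quantile normalization, 0 with the compared groups alone, and 0 to 3 when each library was left out. The count of 0 for the knockout on mutant Keap1 became 1 with quantile normalization or library totals (Fth1 in both), 2 with the compared groups alone (Hamp and Alas1), and 0 to 1 with a library left out. For the Keap1 effect in knockout livers the study's call of Ftl1 went to 0 with quantile normalization, library totals and the compared groups alone and ranged from 0 to 1 with a library left out, and the count of 3 became 0 with the compared groups alone and 1 to 3 with a library left out. Library totals shifted the median of all genes in the comparisons with mutant knockout livers to between 0.12 and 0.13; no other scaling shifted it by more than 0.02. Over all genes at an adjusted p under 0.05, the knockout on mutant Keap1 gave 60 higher and 66 lower, 140 and 88 with quantile normalization and 253 and 66 with library totals, and the Keap1 effect in knockout livers 123 and 204, 179 and 201, and 346 and 170.

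Replicate numbers did not pair the livers: 24 same-number pairs correlated at −0.315 to 0.31 (median −0.037, against 0.009 for other numbers). With the number as a replicate block, the count of 2 became 1 (Fth1, adjusted p = 0.077), and Blvrb in the Keap1 effect of knockout livers went to an adjusted p of 0.051.

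Directions that reversed belonged to values past no threshold. Summed copies gave Hamp 0.14 for the Keap1 effect with Trsp intact and −0.84 for the interaction, quantile normalization gave Fth1 0.02 and library totals gave Trf 0.02 for the interaction. With a library left out, ranges that crossed 0 were, for the knockout on wild-type Keap1, Blvra −0.16 to 0.06, Slc40a1 −0.04 to 0.24 and Tfrc −0.29 to 0.10, and on mutant Keap1 Blvrb −0.02 to 0.28. For the Keap1 effect they were, with Trsp intact, Blvra −0.08 to 0.14, Hamp −1.73 to 0.30 and Alas1 −0.12 to 1.05, and in knockout livers Hmox1 −0.16 to 0.73 and Hamp −1.35 to 0.73. The Hamp interaction spanned −0.56 to 1.87. The cause of these changes was not tested. Of the other values of single members under an alternative, 1283 kept direction and side of the threshold, 25 fell short of it and 9 newly passed it.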
